A study of Mus musculus with 6 samples.

Results

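The heat shock and chaperone genes are the 86 genes, of 47937 in the deposited table, whose symbols begin with Hspa, Hspb, Hspd, Hspe, Hsph or Hsp9, with Dnaja, Dnajb or Dnajc and a number, or with Cct and a digit from 2 to 8, together with Tcp1, Hsf1 and Bag3. Pseudogene symbols ending in -ps were left out. Of the 86, 71 passed the filter on low values, a mean normalized count of at least 10 over the 6 libraries, as did 11805 genes in all. A normalized count is the number of reads of a gene divided by a size factor for its library. Another 8 members were read but fell under the filter, and 7 (Cct8l1, Dnajb8, Dnajc22, Dnajc5g, Hspa1l, Hspb3 and Hspb7) had no read in any library. The symbols fall into 11 families by their first letters: HSP90, HSP70, HSP110, the small heat shock proteins, HSP60 with HSP10, the HSP70-binding proteins Hspbp1 and Hspbap1, the J proteins of classes DNAJA, DNAJB and DNAJC, the TRiC subunits, and the regulators Hsf1 and Bag3.

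The sequenced material was polyadenylated RNA of haematopoietic stem cells (HSCs), which renew themselves and give rise to the blood lineages, from wild-type C57BL/6 mice aged 8 weeks and labelled male. Untreated marrow was depleted of lineage-positive cells, and cells in the gate LSK, CD34-, Flt3-, CD48-, Slam1+ were sorted into a fraction carrying the surface receptor CD93 (CD93pos, 3 libraries) and a fraction without it (CD93neg, 3 libraries). The labels call the 3 libraries of a group biological replicates without tying them to animals, so p-values measure only the spread between these libraries. The comparison asks how the transcripts of the chaperone system differ between the fractions.

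Chaperones bind unfolded or partly folded proteins and help them reach or regain their native shape. HSP70 proteins bind and release short stretches of client protein using ATP, J proteins deliver clients to them and start the ATP cycle, HSP110 proteins exchange the nucleotide, and HSP90 acts later on clients such as kinases and hormone receptors. TRiC and HSP60 are ring-shaped chambers, of the cytosol and of mitochondria, in which a protein folds enclosed, and the transcription factor HSF1 raises many of these genes when unfolded proteins accumulate.

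A pair of promoter motifs, each bound by factors of a stress response, was searched in the members, and the matching stretches are shown because the values of these members are given below. RefSeq promoters (GRCm38.p6) were found for 70 of the 86 members, and the 250 bases before the start were searched on both strands. The heat shock element was searched as GAA, TTC and GAA with any 2 bases between neighbours, the repeats bound by HSF1, and occurred in 3 of 70 members and in 0.514% of 27025 genes. The endoplasmic reticulum stress element, bound by ATF6 with NF-Y, was searched as CCAAT followed, after any 9 bases, by CCACG, and occurred in 3 of 70 members and in 0.130% of all genes. These matches are descriptions of the sequence and not measured binding sites. Other members known from these stress responses, among them Hspa1a, Hspa1b, Hsph1 and Dnajb1 and, for the endoplasmic reticulum, Dnajb9 and Dnajb11, held no match in this form within the window. Capitals mark the fixed letters of each motif.
Dnajb6, chr5:29735847-29735869, plus strand: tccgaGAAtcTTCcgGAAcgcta
Hspd1, chr1:55088054-55088081, minus strand: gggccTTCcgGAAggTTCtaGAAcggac
Hspe1, chr1:55088054-55088081, plus strand: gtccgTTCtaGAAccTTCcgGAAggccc
Dnajc3, chr14:118937822-118937850, plus strand: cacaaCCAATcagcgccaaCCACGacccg
Hspa5, chr2:34772020-34772048, plus strand: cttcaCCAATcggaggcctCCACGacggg
Hsp90b1, which has 2 matches, on opposite strands, chr10:86705528-86705661, minus strand: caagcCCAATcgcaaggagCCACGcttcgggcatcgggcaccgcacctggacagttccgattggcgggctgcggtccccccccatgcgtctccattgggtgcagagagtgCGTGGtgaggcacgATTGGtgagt
Hspd1 and Hspe1 are read in opposite directions from a shared stretch, so their printed elements are the same 28 bases on the 2 strands. The 2 overlapping matches in that stretch have 4 repeats between them.

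Depth and composition differed between the libraries. CD93pos libraries had 5794528 to 9509304 reads assigned to genes and CD93neg libraries 2832653 to 4614396. CD93neg replicate 1 stood apart: 71.0% of the 11805 tested genes had no read in it, against 2.10% to 26.4% in the other libraries. All mice are labelled male, yet Xist, transcribed from the inactive X chromosome, gave 2419 and 1143 reads in CD93neg replicates 2 and 3 and at most 12 elsewhere. The 4 Y-linked genes examined had 1 read together in the CD93neg group and were all read in every CD93pos library. Reads of Y-linked genes thus divided the libraries as the CD93 label did, so sex and fraction cannot be told apart. Neutrophil markers summed to 12570 and 8452 counts per 1e6 assigned reads (CPM) in CD93neg replicates 2 and 3, against 288 or less in the other 4 libraries, and B lineage markers to 11111 and 34016 CPM against 97.6 or less. Dendritic cell markers (5 genes) summed to 97.3 to 160 CPM in CD93pos and 209, 2704 and 2900 CPM in CD93neg. Most of the sum in CD93neg replicates 2 and 3 was Cd74, with 11546 and 8128 reads. The fitted log2 fold change was negative for 4 of the 5 markers. It was positive for Flt3, with 236, 0 and 195 reads in CD93pos against 0, 172 and 13 in CD93neg. Other lineages were higher in CD93pos: mast cell and basophil markers, of which 6 of 7 were read in every CD93pos library and Cpa3 alone in CD93neg, summed to 94.7, 1057 and 696 CPM against 0, 27.5 and 0, and the 6 erythroid markers to 371, 309 and 628 CPM against 228, 11.5 and 80.6. All 13 HSC markers were read in every library except CD93neg replicate 1, which had 6 of them, and they summed to 2807 to 3582 CPM in CD93pos and 3815 to 5707 CPM in CD93neg, lower in every CD93pos library. Values without CD93neg replicate 1 are therefore given beside the results it touches, and values without CD93neg replicates 2 and 3 for the totals, the counts of calls and several of the genes.

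As a whole, chaperone transcripts took a larger share of the reads in CD93pos HSCs. The 86 members had 18690, 17533 and 24295 CPM in CD93pos replicates 1, 2 and 3, and 13569, 13159 and 13165 CPM in CD93neg replicates 1, 2 and 3. The CD93neg libraries lay close together, and every CD93pos library lay above them. The means were 20173 ± 3617 and 13298 ± 235 CPM (SD, n = 3 each), a ratio of 1.52, which was 1.53 without CD93neg replicate 1 and 1.49 without CD93neg replicates 2 and 3. The mast cell, basophil and erythroid markers were also higher, and the HSC markers lower, in every CD93pos library, and their part in this difference was not tested. Reads of Y-linked genes divided the libraries in the same way, and the part of sex was not tested either. In bulk RNA, fewer cells of a type and less RNA per cell cannot be told apart. The number of members read was 76, 68 and 73 in CD93pos and 25, 61 and 64 in CD93neg, so the similar CD93neg totals came from different numbers of genes.

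**Figure D1:**
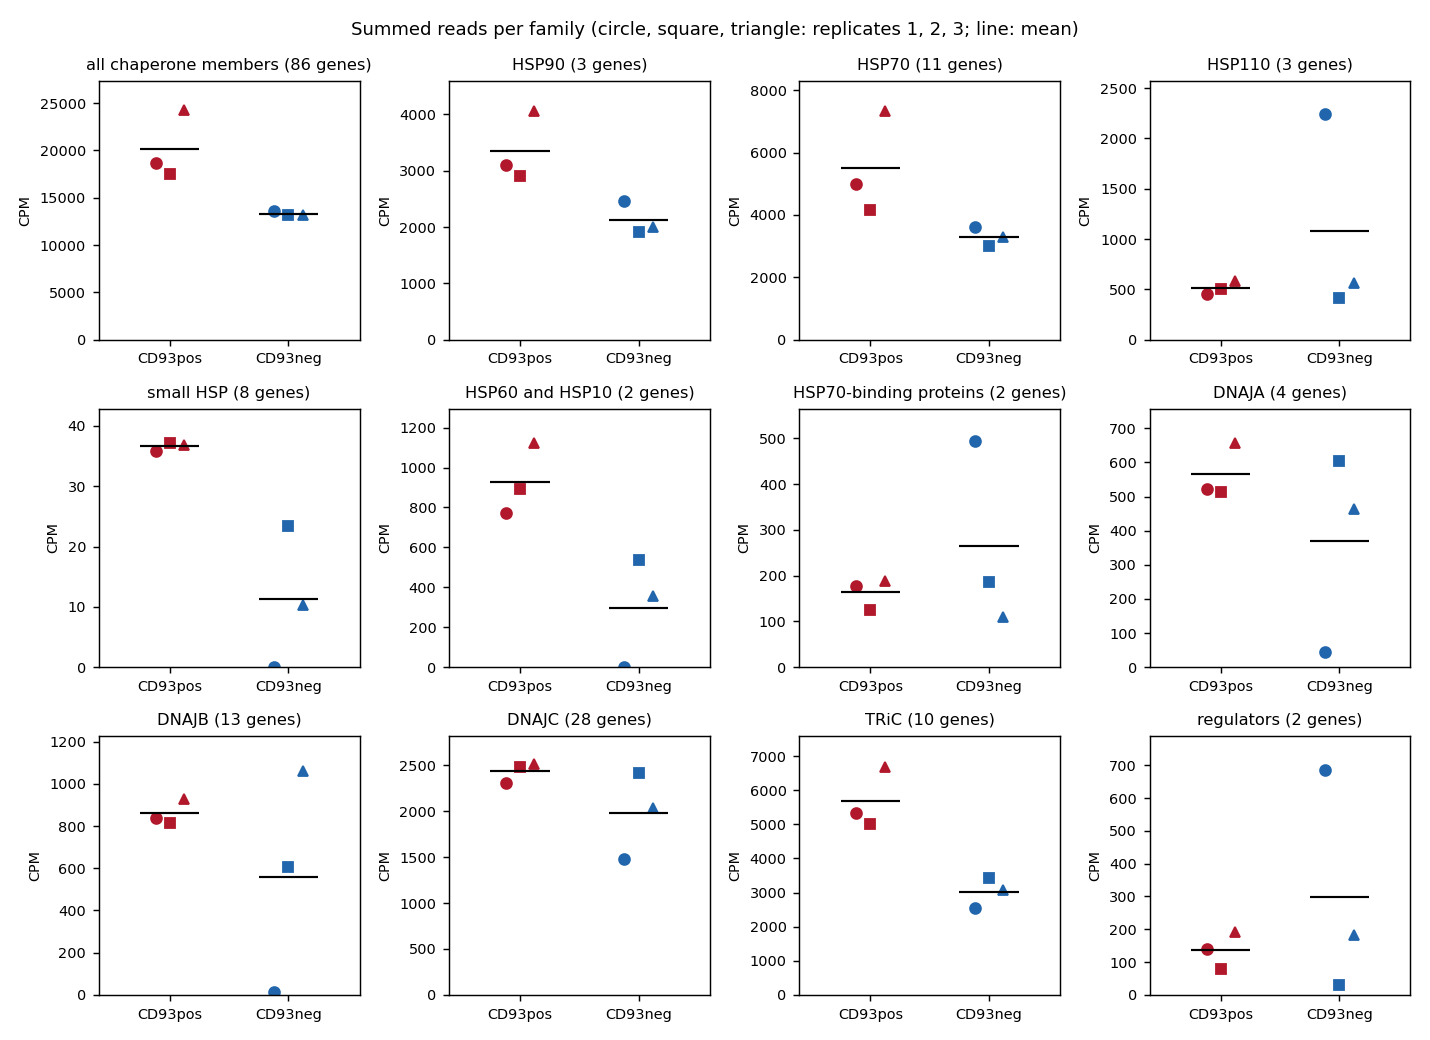
Summed reads of all 86 members and of each of the 11 families, in CPM, for the 3 CD93pos libraries (red) and the 3 CD93neg libraries (blue); lines are means. All members together, HSP90, HSP70, the small heat shock proteins, HSP60 with HSP10, and TRiC show every CD93pos library above every CD93neg library, whereas HSP110 and the regulators have their highest value in CD93neg replicate 1.

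Among the 11 families, the CPM sums of 5 did not overlap between the groups and were higher in CD93pos. TRiC had a ratio of means of 1.89, HSP70 of 1.66 and HSP90 of 1.58, and without CD93neg replicate 1 these were 1.75, 1.74 and 1.72. The small heat shock proteins had 3.26 and HSP60 with HSP10 had 3.10. CD93neg replicate 1 had no read for any gene of either family, and without it the ratios were 2.17 and 2.07. DNAJA, DNAJB and DNAJC had ratios of 1.52, 1.54 and 1.23 with overlapping groups, and of 1.06, 1.03 and 1.09 without CD93neg replicate 1. HSP110, the HSP70-binding proteins and the regulators had ratios of 0.477, 0.622 and 0.459, but 1.05, 1.104 and 1.29 without CD93neg replicate 1, so the lower means in CD93pos rested on that library alone. HSP90, HSP70 and both ring chambers thus separated the groups by their sums, and the 3 classes of J proteins did not.

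No member passed the test gene by gene. The limma test on log2(normalized count + 1), adjusted by Benjamini and Hochberg over 11805 genes, called 0 members, as it called 0% of all tested genes, with a smallest adjusted p of 0.0558. At an unadjusted limma p under 0.05 there were 10 members, all higher in CD93pos, of 71, where 11.8% of all tested genes were higher and 0.381% lower. In edgeR's quasi-likelihood test on whole reads 0 members were called and 7 had an unadjusted p under 0.05. The absence of limma calls rested on single libraries. Without CD93neg replicate 3, 13 of the 71 members were called, all higher in CD93pos, among 1880 of the 11805 tested genes. The 13 were Cct8, Dnajb3, Dnajc17, Dnajc21, Dnajc25, Dnajc27, Dnajc6, Hsp90ab1, Hspa1a, Hspa1b, Hspa2, Hspa9 and Hspb6. Without CD93pos replicate 2 there were 4 members (Dnajb3, Hspa1b, Hspa2 and Hspb6) among 774 of the 11805 genes. Every CD93pos library lay above every CD93neg library for 20 of the 71 members (28.2%), against 18.3% of all tested genes. The opposite order was found for 1 member, Dnajc19, against 1.92%. Of the 20 members, 4 had no read in CD93neg (Hspa2, Hspb6, Hspa1b and Dnajb3), and so passed the filter through their CD93pos values alone. Without CD93neg replicate 1 the counts were 25 members higher (35.2%, against 21.8% of all genes) and 7 lower (against 13.8%). Of the 24 members whose mean normalized count was 1000 or more, 9 were higher without overlap, against 11.3% of the 1031 genes at that level.

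The median log2 fold change (CD93pos minus CD93neg) of the 71 members was 2.15, beside 2.36 over all tested genes, so members did not lie above the table on this scale. It was positive for 64 of the 71 members, against 79.9% of all tested genes, and without CD93neg replicate 1 for 50, against 60.1%. That shift of the whole table goes with the unread genes of CD93neg replicate 1, which lacked 46 of the 71 members (64.8%). Without that library the medians were 0.52 for members and 0.43 for all genes. After quantile normalization, which gives all libraries the same distribution, they were 0.60 and 0.02, with 44 of 71 members positive, 18 higher without overlap (9.94% of all genes) and 6 lower (12.4%). With CD93neg replicates 2 and 3 left out instead, so that replicate 1 stands alone for its group and its spread is taken from the other libraries, limma called 52 members (45 higher, 7 lower) among 7892 genes, and the median of the members was 5.54 beside 5.70 for all genes.

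**Figure D2:**
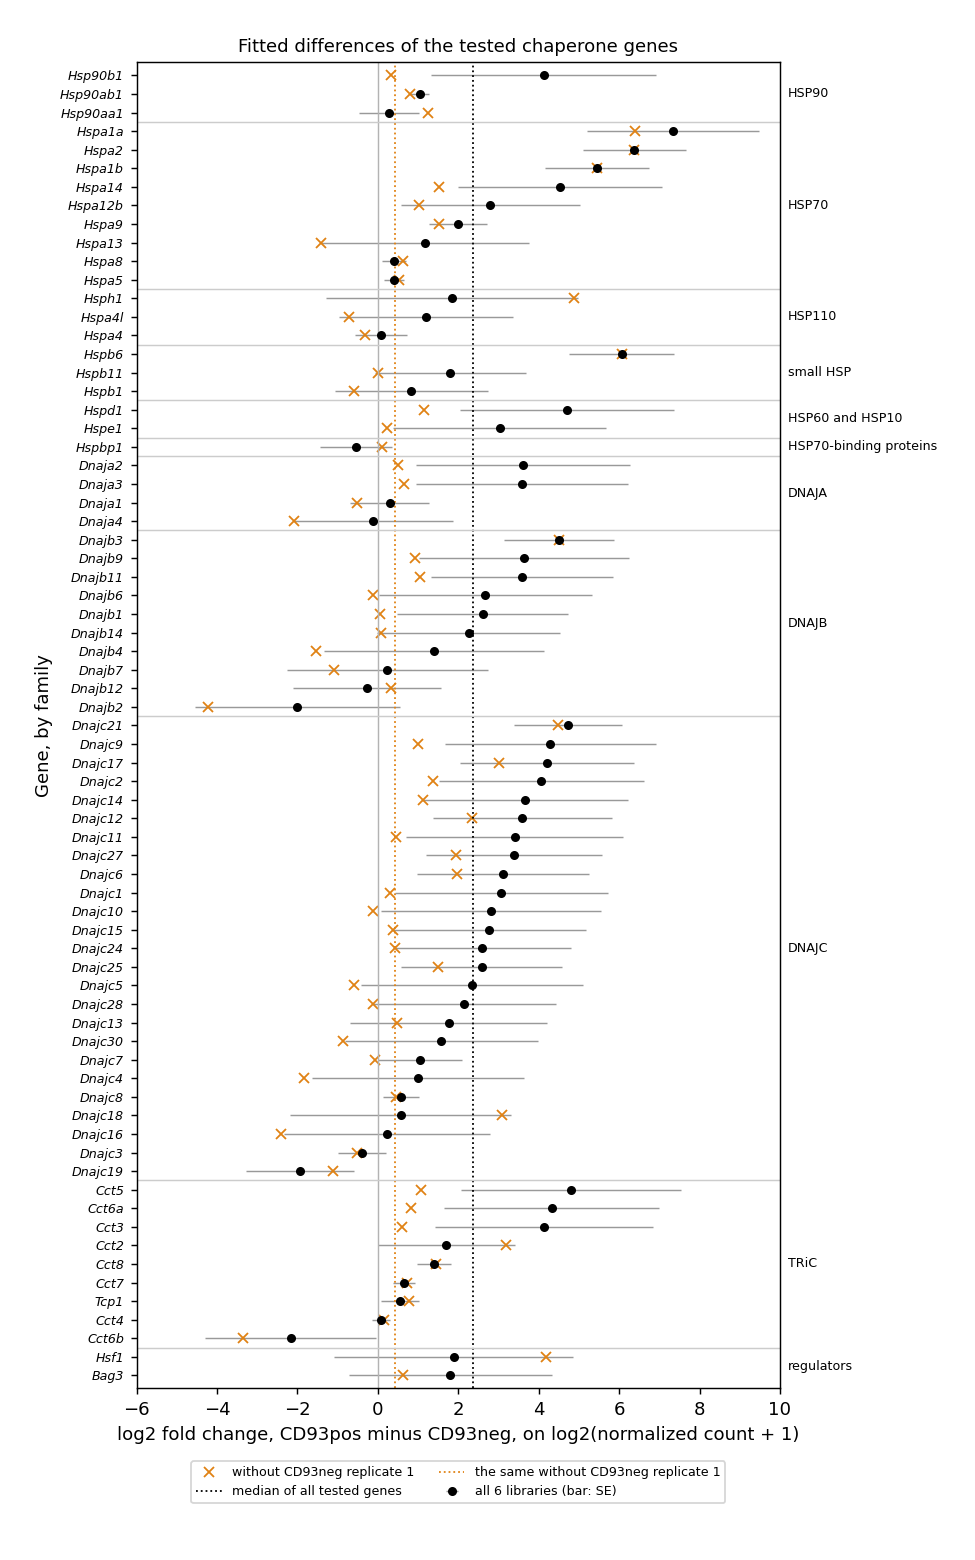
Fitted log2 fold changes of the 71 tested members by family, CD93pos minus CD93neg, with all 6 libraries (black, bars are SE) and without CD93neg replicate 1 (orange crosses); dotted lines are the medians of all tested genes. Leaving out CD93neg replicate 1 moves many members toward 0, but leaves Hspa1a, Hspa2, Hspa1b, Hspb6, Dnajb3 and Dnajc21 above 4, and raises Hsph1 and Hsf1.

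The regulators come first. Hsf1, the transcription factor of the heat shock response (chr15:76477422-76501913), had 1203, 460 and 1233 reads in CD93pos, against 1938, 0 and 552 in CD93neg. The CD93neg libraries held both its highest and its lowest level, and the groups overlapped. Normalized counts averaged 558 ± 197 in CD93pos against 1460 ± 1834 in CD93neg (SD, n = 3 each), while the fitted log2 fold change, with 1 CD93neg library at 0, was 1.88, so mean and fit differ in sign. Bag3, which links HSP70 to the small heat shock proteins and to autophagy of misfolded proteins, had 141, 0 and 133 reads in CD93pos, against 0, 134 and 0 in CD93neg, with no order between the groups.

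Hsp90ab1, the constitutive cytosolic HSP90 (chr17:45567775-45573271), had the smallest limma adjusted p among the 22 members read in all 6 libraries. It had normalized counts of 7824, 7187 and 9737 in CD93pos and 2812, 4341 and 5139 in CD93neg. All CD93pos libraries were above all CD93neg libraries, with means of 8249 ± 1327 and 4097 ± 1182 (SD, n = 3 each). The fitted log2 fold change, 1.04 (SE 0.23), fell short of the threshold with a limma adjusted p of 0.0669. Without CD93neg replicate 1 the fold change was 0.79, and it was 1.54 with that library alone for CD93neg.

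Hsp90aa1, the stress-inducible cytosolic form (chr12:110690605-110702728), behaved differently from library to library. Its normalized counts were 2783, 2846 and 3882 in CD93pos and 9888, 1066 and 1658 in CD93neg, so CD93neg replicate 1 was above and the other CD93neg libraries were below every CD93pos library. The log2 fold change was 0.27 (SE 0.74), 1.24 without CD93neg replicate 1 and -1.66 with that library alone for CD93neg. Of the stretches of 50 bases in its exons, 47.5% also occur in other genes, mainly a processed copy, so its reads may be divided between them. Hsp90b1, the HSP90 of the endoplasmic reticulum with 2 stress elements in its promoter, had 6219, 4203 and 6950 reads in CD93pos, against 0, 3116 and 1639 in CD93neg. Apart from the unread library its normalized counts overlapped, and its log2 fold change was 0.32 without CD93neg replicate 1.

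In the HSP70 family 5 of 9 tested members were higher in CD93pos without overlap, beside 18.3% of all tested genes. The 5 were the stress-inducible Hspa1a and Hspa1b, and Hspa2, Hspa9 and Hspa14. Hspa8, the constitutive cytosolic HSP70 (chr9:40800984-40810087), had the highest mean normalized count of all members. Its libraries had 9322, 9065 and 17372 in CD93pos and 11811, 5932 and 9034 in CD93neg. The groups overlapped through CD93neg replicate 1, and CD93pos replicate 3 was the highest. With 0.40 on the log2 scale (SE 0.30) and a limma adjusted p of 0.599, the difference stayed within the spread between libraries. Other genes share 39.4% of the 50-base stretches of its exons, Gm15459 alone 34.6%. Hspa5, the HSP70 of the endoplasmic reticulum and a target of its stress response, had normalized counts of 6313, 5521 and 10445 in CD93pos and 6408, 5579 and 4426 in CD93neg. Its groups also overlapped, and the fit gave 0.40 on the log2 scale (SE 0.25, limma adjusted p = 0.538).

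The mitochondrial HSP70 was higher in CD93pos. Hspa9, the motor of protein import into mitochondria (chr18:34937414-34954357), had normalized counts of 2246, 2268 and 2458 in CD93pos and 301, 502 and 1302 in CD93neg. The CD93pos libraries lay within a narrow band above all CD93neg libraries, with means of 2324 ± 117 and 702 ± 529 (SD, n = 3 each). The fit gave a log2 fold change of 1.99 (SE 0.73) with a limma adjusted p of 0.297. It was 1.52 without CD93neg replicate 1, 2.57 without CD93neg replicate 3 (limma adjusted p = 0.0311) and 2.94 with CD93neg replicate 1 alone for CD93neg. Hspa14, a ribosome-associated HSP70, had 3325, 1979 and 2337 reads in CD93pos, against 0, 487 and 381 in CD93neg, again without overlap. Without CD93neg replicate 1 its log2 fold change was 1.52, and the ratio of its mean normalized counts was 2.85.

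The stress-inducible HSP70 genes Hspa1a (chr17:34969190-34972156) and Hspa1b (chr17:34956436-34959238) were read in all CD93pos libraries and were at or near 0 in CD93neg. Hspa1a had 3890, 475 and 523 reads in CD93pos, against 0, 0 and 32 in CD93neg. One library carried most of the signal: CD93pos replicate 1 had a normalized count of 1778, against 376 and 322 in the other CD93pos libraries, so the CD93pos mean was 826 ± 826, against 16.7 ± 28.9 for CD93neg (SD, n = 3 each). Its fitted log2 fold change of 7.34 (SE 2.14) had a limma adjusted p of 0.149. Without CD93neg replicate 1 it was 6.39, and without CD93neg replicate 3, the CD93neg library that read the gene, 9.23 with a limma adjusted p of 0.0139. Hspa1b had 189, 36 and 50 reads in CD93pos and 0 in every CD93neg library, which puts CD93pos at least 42.7-fold higher when 3 reads are taken as the floor of the whole CD93neg group. That bound was 23.1 without CD93pos replicate 1 and 23.8 without CD93neg replicate 2. The 2 genes share 62.3% of the 50-base stretches of Hspa1b, so their reads cannot be fully separated.

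Hspa2, an HSP70 best known from spermatogenesis (chr12:76404176-76406938), had the smallest limma adjusted p of the members. It had 110, 181 and 124 reads in CD93pos but was unread in CD93neg, a level at least 64.4-fold higher (35.9-fold without CD93neg replicate 2). The gene passed the filter on low values through its CD93pos counts alone. Its exons share no 50-base stretch with another gene. Its log2 fold change of 6.38 (SE 1.28) came with a limma adjusted p of 0.0558, above the threshold. The other tested HSP70 genes, Hspa13 of the endoplasmic reticulum and Hspa12b of endothelium, overlapped between the groups. Hspa13 ranged from 51 to 672 reads in CD93pos and from 0 to 482 in CD93neg, and its log2 fold change of 1.18 was -1.42 without CD93neg replicate 1.

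The authors' deposited table, from DESeq2, called 705 genes at an adjusted p under 0.05: 659 were higher in CD93pos (5.58% of 11813) and 46 lower (0.389%). Of the 67 members with an adjusted p in it, 3 were called, all higher in CD93pos. The authors' deposited table gave Hspa2 a log2 fold change of 8.46 (SE 2.28) with an adjusted p of 0.00847, Hspb6 8.21 with 0.0115, and Hspa1b 7.57 with 0.0255. These are 3 of the 4 members, with Dnajb3, that were read in every CD93pos library and in no CD93neg library, a pattern of 4.60% of all tested genes. All 4 passed the filter on low values through their CD93pos counts alone. The next members in the authors' deposited table were Dnajb3 (adjusted p = 0.0711), Dnajc21 (0.104) and Hspa1a (0.123). In DESeq2 repeated with each library left out in turn, 1, 0 and 0 members were called when CD93pos replicate 1, 2 or 3 was missing. With CD93neg replicate 1, 2 or 3 missing, 7, 4 and 10 were called, so the calls depended on single libraries. Hspa2, Hspb6 and Hspa1b were called whichever CD93neg library was missing, but never with a CD93pos library missing. The member called without CD93pos replicate 1 was Cct6b, lower in CD93pos, with 138 reads in CD93neg replicate 2 and 1 in CD93pos replicate 1. Cct6b was also among the 10, and Dnajc4, lower in CD93pos without CD93neg replicate 1, among the 7.

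**Figure D3:**
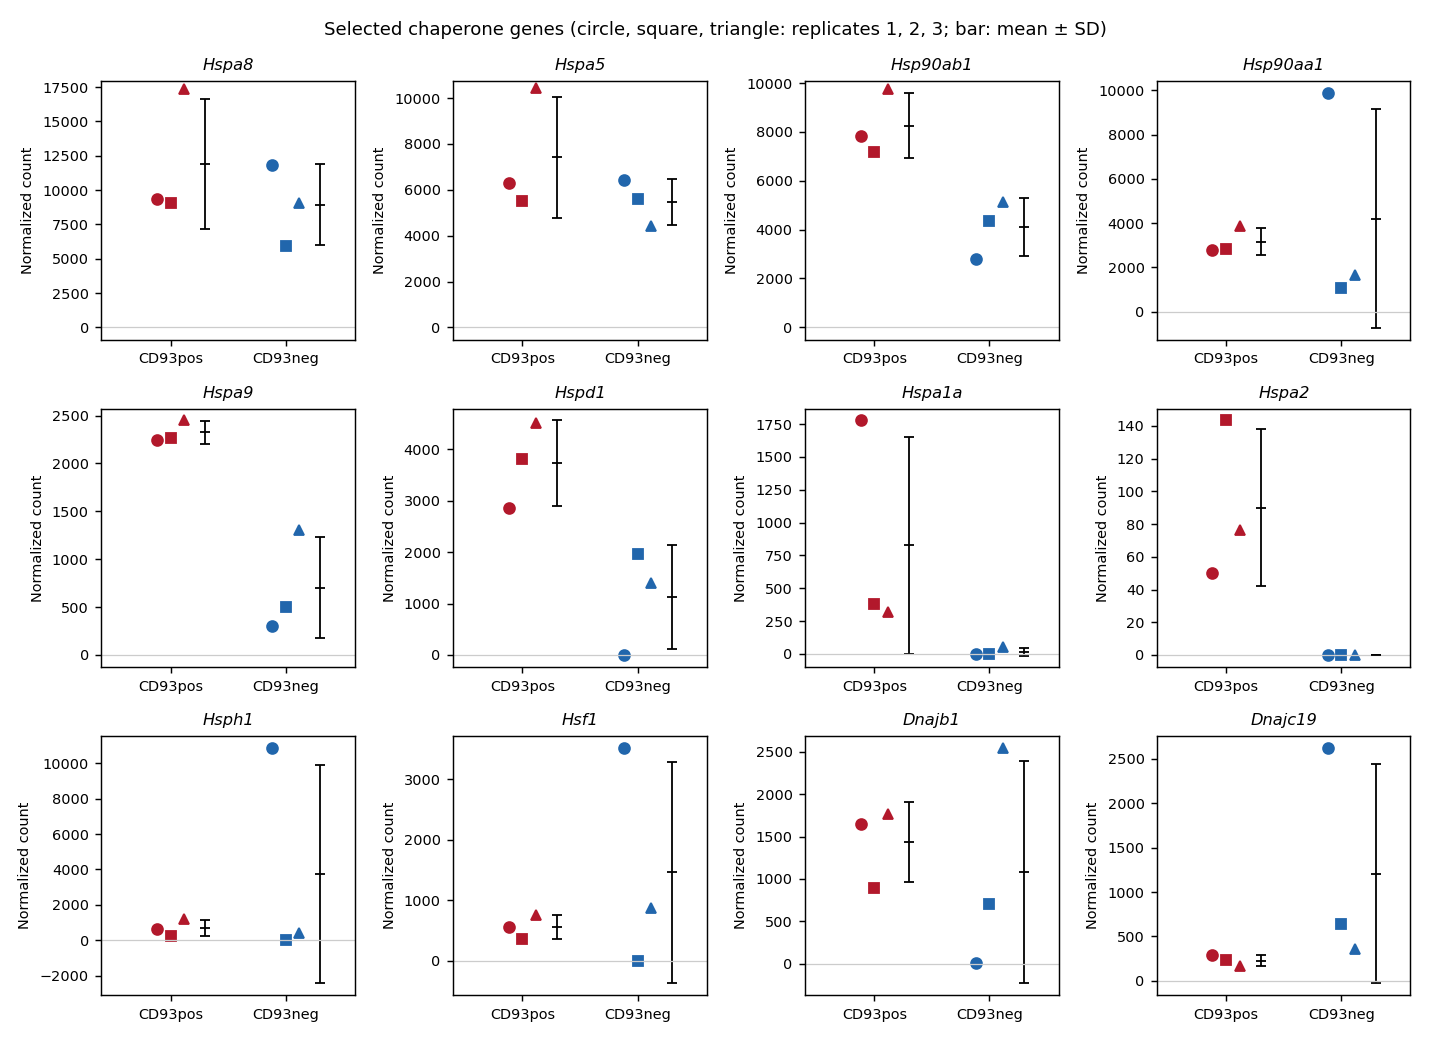
Normalized counts of 12 members in the 3 CD93pos libraries (red) and the 3 CD93neg libraries (blue), with mean and SD beside each group. Hsp90ab1, Hspa9, Hspd1, Hspa1a and Hspa2 are higher in every CD93pos library, Hspa8, Hspa5 and Dnajb1 overlap, and Hsp90aa1, Hsph1, Hsf1 and Dnajc19 are highest in CD93neg replicate 1.

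HSP110 proteins had no difference that all libraries shared. Hsph1, the stress-inducible HSP110 (chr5:149614287-149636376), had 1450, 320 and 1932 reads in CD93pos, against 5977, 0 and 253 in CD93neg. CD93neg replicate 1, the library that lacked most genes, held the highest level and CD93neg replicate 2 had no read. Normalized counts averaged 702 ± 469 in CD93pos against 3749 ± 6154 in CD93neg (SD, n = 3 each), whereas the fitted log2 fold change was 1.85, 4.88 without CD93neg replicate 1 and -1.82 without CD93neg replicate 2. Hsph1 alone took 15.6% of the chaperone reads of CD93neg replicate 1 and Hsp90aa1 another 14.2%, against at most 1.11% and 3.63% in any other library. Hspa4, the constitutive HSP110, had normalized counts of 1023, 1762 and 1148 in CD93pos and 688, 1447 and 1740 in CD93neg, and Hspa4l ranged from 215 to 300 and from 7.26 to 530. Both overlapped between the groups.

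Small heat shock proteins, which hold unfolding proteins in a soluble state, were scarce. Hspb6, known from muscle (chr7:30552178-30555443), had 63, 130 and 156 reads in CD93pos but was unread in CD93neg, a level at least 54.1-fold higher (30.2-fold without CD93neg replicate 2). On the log2 scale the fold change was 6.07 (SE 1.30, limma adjusted p = 0.0606). Hspb1, the widespread HSP27, had 124, 5 and 10 reads in CD93pos, against 0, 66 and 3 in CD93neg, and Hspb11, which is also a subunit of ciliary transport, had 31 to 115 and 0 to 42. Both overlapped, and 50.1% of the 50-base stretches of Hspb1 also occur in other genes. Hspb8 and Hspb9 had 43 and 49 reads in all, each only in CD93pos libraries, and Hspb2 had 3. The groups of this family thus separated through Hspb6.

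The mitochondrial chamber HSP60 and its lid HSP10 are encoded head to head (Hspd1, chr1:55077835-55088243, and Hspe1, chr1:55088132-55091307) around the shared heat shock element shown above, and their annotated exons overlap on opposite strands. Hspd1 had normalized counts of 2851, 3803 and 4518 in CD93pos and 0, 1955 and 1405 in CD93neg. The groups did not overlap, with means of 3724 ± 836 and 1120 ± 1008 (SD, n = 3 each). The fit gave a log2 fold change of 4.71 (SE 2.66), far from the limma threshold, 1.14 without CD93neg replicate 1, and 11.84 with that library, which had no read, alone for CD93neg. Hspe1 had normalized counts of 505, 300 and 417 in CD93pos and 0, 412 and 277 in CD93neg, which overlapped, and its log2 fold change without that library was 0.24. Of the 2 genes that share the element, only Hspd1 kept the groups apart; a difference between the 2 genes was not tested. Other genes share 42.1% of the 50-base stretches of Hspd1, the processed copy Hspd1-ps3 alone 38.0%, and 22.8% of those of Hspe1.

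**Figure D4:**
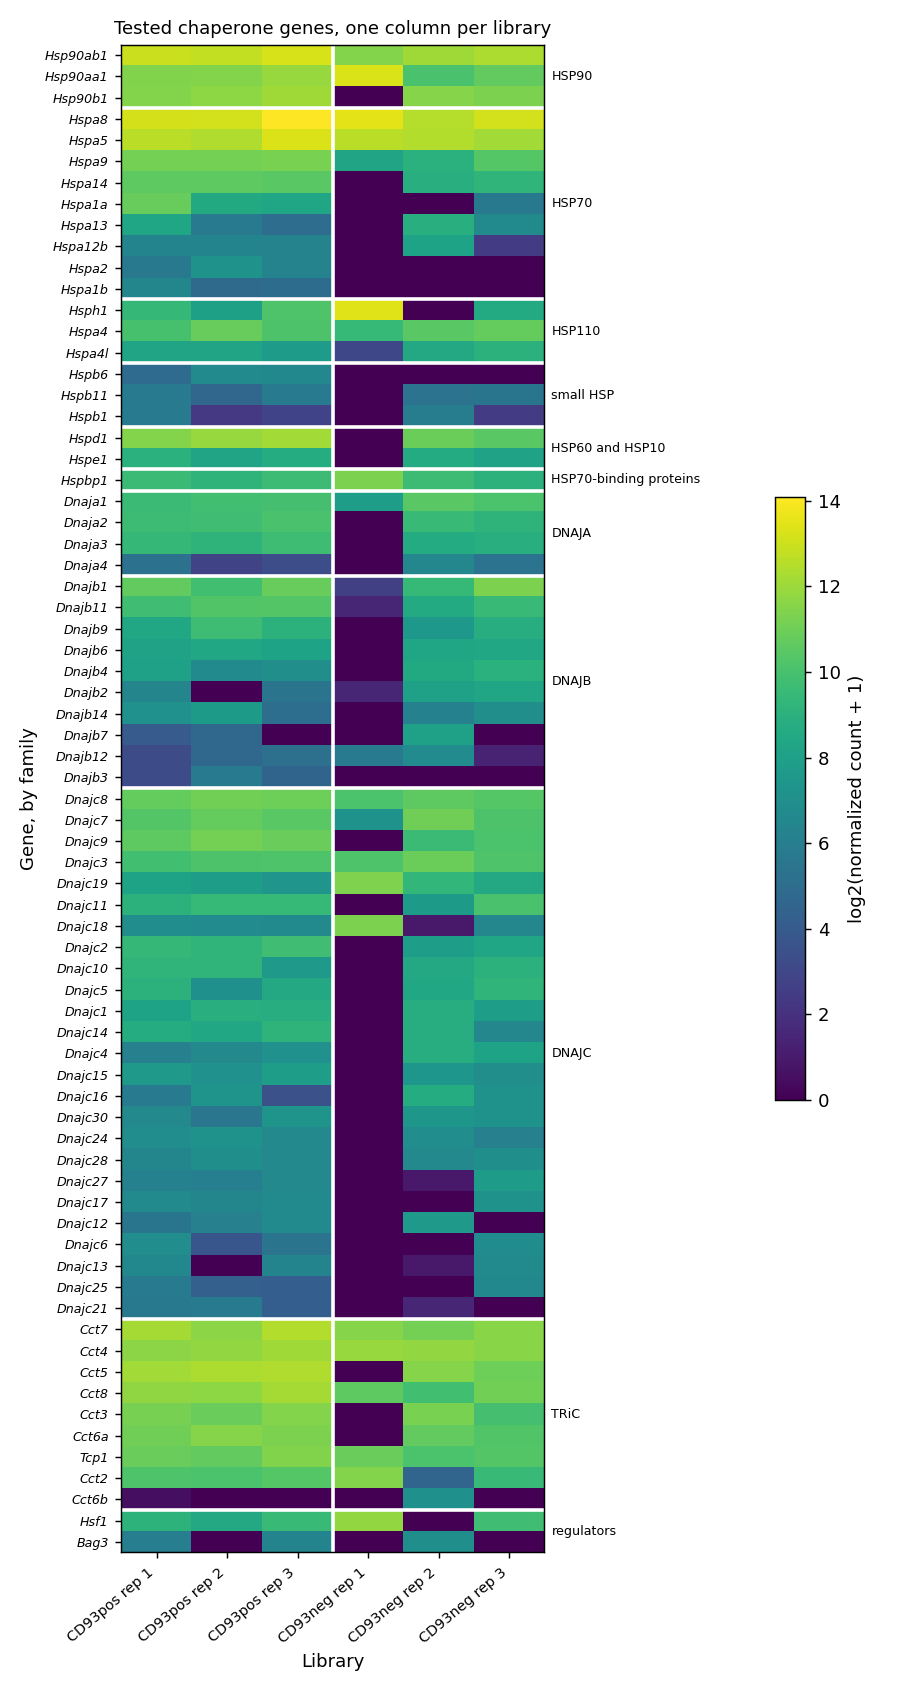
Level of each of the 71 tested members, log2(normalized count + 1), by family (rows) and library (columns). Dark cells are genes without a read: 46 of the 71 rows are dark in CD93neg replicate 1, most of them J proteins, while Hsp90aa1, Hspa8, Hspa5, Hsph1, Hsf1 and 5 of the 8 TRiC subunits are bright there.

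Class A J proteins are the general partners of HSP70. Dnaja1, of the cytosol, had normalized counts of 765, 905 and 973 in CD93pos and 231, 1438 and 1102 in CD93neg, so CD93neg replicates 2 and 3 lay above and replicate 1 below every CD93pos library. Dnaja2, also cytosolic, had 804, 872 and 1066 in CD93pos and 0, 714 and 567 in CD93neg, and Dnaja3, the mitochondrial partner of Hspa9, 665, 574 and 848 against 0, 409 and 460. Dnaja2 and Dnaja3 did not overlap. Their log2 fold changes were 3.62 and 3.58, and 0.51 and 0.66 without CD93neg replicate 1. Dnaja4 had 8 to 86 reads in CD93pos and 0 to 95 in CD93neg, and 42.7% of its 50-base stretches lie in the overlapping gene Wdr61.

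Of the 10 tested class B J proteins, Dnajb11 and Dnajb3 were higher without overlap, a share near the 18.3% of all tested genes. Dnajb11, the partner of Hspa5 in the endoplasmic reticulum, had normalized counts of 859, 1228 and 1251 in CD93pos and 1.82, 388 and 713 in CD93neg. Its ratio of means was 3.03, and 2.02 without CD93neg replicate 1. Dnajb3 had 18, 67 and 36 reads in CD93pos but was unread in CD93neg, a level at least 18.8-fold higher (11.3-fold without CD93pos replicate 2 and 10.5-fold without CD93neg replicate 2). Dnajb1, a J protein raised by heat shock, had normalized counts of 1648, 895 and 1772 in CD93pos and 5.45, 699 and 2546 in CD93neg. The highest and the lowest library were both CD93neg, and the log2 fold change of 2.61 was 0.05 without CD93neg replicate 1. Dnajb6, a suppressor of protein aggregation with a heat shock element, had 593, 445 and 464 reads in CD93pos, against 0, 321 and 223 in CD93neg, and Dnajb9, raised by endoplasmic reticulum stress, had 751, 1068 and 855 against 0, 194 and 276. Their normalized counts overlapped, with log2 fold changes of -0.12 and 0.92 without CD93neg replicate 1. Dnajb2 had 186, 0 and 67 reads in CD93pos, against 1, 283 and 196 in CD93neg, which overlapped. The fit gave -2.003 on the log2 scale (SE 2.55, limma adjusted p = 0.685), with -4.23 without CD93neg replicate 1, -0.032 without CD93pos replicate 2 and 2.45 with CD93neg replicate 1 alone for CD93neg.

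Class C J proteins carry a J domain on varied scaffolds, and 20 of their 25 tested genes were unread in CD93neg replicate 1. Higher without overlap were 4, Dnajc2, Dnajc8, Dnajc9 and Dnajc21, which is below the share of all tested genes (18.3%). Dnajc8, linked to splicing, was the most abundant and was read in all libraries, with normalized counts of 1709, 2172 and 1977 in CD93pos and 1109, 1523 and 1310 in CD93neg. The small log2 fold change, 0.58 (SE 0.46), had a limma adjusted p of 0.612. Dnajc9, a histone chaperone, had normalized counts of 1557, 2219 and 1869 in CD93pos and 0, 790 and 1092 in CD93neg. Dnajc2, the ribosome-bound partner of Hspa14, had 674, 594 and 858 in CD93pos and 0, 236 and 309 in CD93neg, with log2 fold changes of 4.06 and, without CD93neg replicate 1, 1.37. Dnajc2 and Hspa14, which encode the 2 subunits of 1 ribosome-associated complex, were thus both higher in every CD93pos library.

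Dnajc21, needed for a late step of large ribosomal subunit assembly, had 110, 70 and 29 reads in CD93pos, against 0, 2 and 0 in CD93neg. The fitted log2 fold change was 4.73 (SE 1.34, limma adjusted p = 0.137), but -0.31 after quantile normalization. Dnajc3, an inhibitor of stress-activated translation kinases with an endoplasmic reticulum stress element, had normalized counts of 899, 1116 and 1180 in CD93pos and 1173, 1938 and 1166 in CD93neg, which overlapped. Dnajc7, a partner of both HSP70 and HSP90, had 1271, 1718 and 1447 in CD93pos and 147, 2110 and 1142 in CD93neg, which also overlapped.

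Dnajc19, a J protein of the mitochondrial inner membrane (chr3:34056020-34081321), was the member lower in every CD93pos library. Its normalized counts were 291, 230 and 162 in CD93pos and 2623, 645 and 356 in CD93neg, with means of 228 ± 64.7 and 1208 ± 1234 (SD, n = 3 each). The fitted log2 value of -1.93 (SE 1.34, limma adjusted p = 0.583) was -1.11 without CD93neg replicate 1 and -3.56 with that library alone for CD93neg. Dnajc18 had a single high library, with 1405 reads in CD93neg replicate 1, where replicates 2 and 3 had 1 and 57 and CD93pos libraries 140 to 262.

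TRiC is built from 8 different subunits in equal number, encoded by Tcp1 and Cct2 to Cct8 with Cct6a in the sixth place. The family sum, which includes Cct6b and the unread Cct8l1, was 5342, 5010 and 6685 CPM in CD93pos and 2538, 3419 and 3075 CPM in CD93neg. All CD93pos libraries were above all CD93neg libraries, with means of 5679 ± 887 and 3011 ± 444 (SD, n = 3 each). The sum moved in the same groups as 12 mitosis genes, 8 of which were higher without overlap (beside 18.3% of all tested genes) and which summed to 1971 to 2282 CPM in CD93pos and to 1572, 200 and 356 CPM in CD93neg; the part of dividing cells in the TRiC difference was not tested. CD93neg replicate 1 had the highest mitosis sum of its group, although 7 of the 12 mitosis genes had no read in it. Most of that sum came from Ccnb1 (1948 reads) and Aurkb (2118 reads). It also had the lowest TRiC sum of its group, with Cct3, Cct5 and Cct6a unread.

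Among the subunits, Cct5, Cct6a, Cct7 and Cct8 were higher without overlap. Cct8 (chr16:87483326-87495873) had normalized counts of 3460, 3305 and 4613 in CD93pos and 1527, 888 and 2155 in CD93neg. All 6 libraries read it, with a ratio of means of 2.49 both with and without CD93neg replicate 1. The fit gave 1.39 on the log2 scale (SE 0.42, limma adjusted p = 0.164). Cct7 had 4578, 3242 and 5559 in CD93pos and 2986, 2287 and 3063 in CD93neg, which is 0.66 on the log2 scale (SE 0.27, limma adjusted p = 0.385). Cct5 had 4525, 5271 and 5513 in CD93pos and 0, 2933 and 2010 in CD93neg, and Cct6a 2090, 2953 and 2570 against 0, 1640 and 1214. Their ratios of means without CD93neg replicate 1 were 2.06 and 1.78.

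The other subunits overlapped. Cct4 had normalized counts of 3166, 3565 and 4303 in CD93pos and 3821, 3580 and 3009 in CD93neg, with the smallest fitted difference of the 8, a log2 fold change of 0.08 (SE 0.23). Tcp1 overlapped through CD93neg replicate 1 alone, at 1873 against 1670 to 2682 in CD93pos, and Cct3 had 1890 to 2871 in CD93pos and 0, 2433 and 967 in CD93neg. Cct2 was the least even, with 1179, 1109 and 1312 in CD93pos and 2841, 22.8 and 733 in CD93neg. Its log2 fold change of 1.70 was 3.18 without CD93neg replicate 1 and -0.27 without CD93neg replicate 2.

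Levels per length were compared between subunits as reads per kilobase of exon and per 1e6 assigned reads (RPKM). In CD93pos the highest subunit, Cct5 in all 3 libraries, was 4.42, 6.42 and 4.42 times the lowest. In CD93neg replicate 3 it was 4.78 times the lowest, and in CD93neg replicate 2, where Cct2 was at 2.03 RPKM, it was 119 times. CD93neg replicate 1 had 5 of the 8 subunits: Cct3, Cct5 and Cct6a had no read, and Cct2 was the highest at 216 RPKM. The median over the 8 subunits was 141 to 174 RPKM in CD93pos and 79.1 to 83.9 RPKM in CD93neg. Cct5, Cct8 and Cct4 were the 3 highest subunits, in that order, in every CD93pos library, and CD93neg replicate 3 had the same 3 at nearly equal levels.

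**Figure D5:**
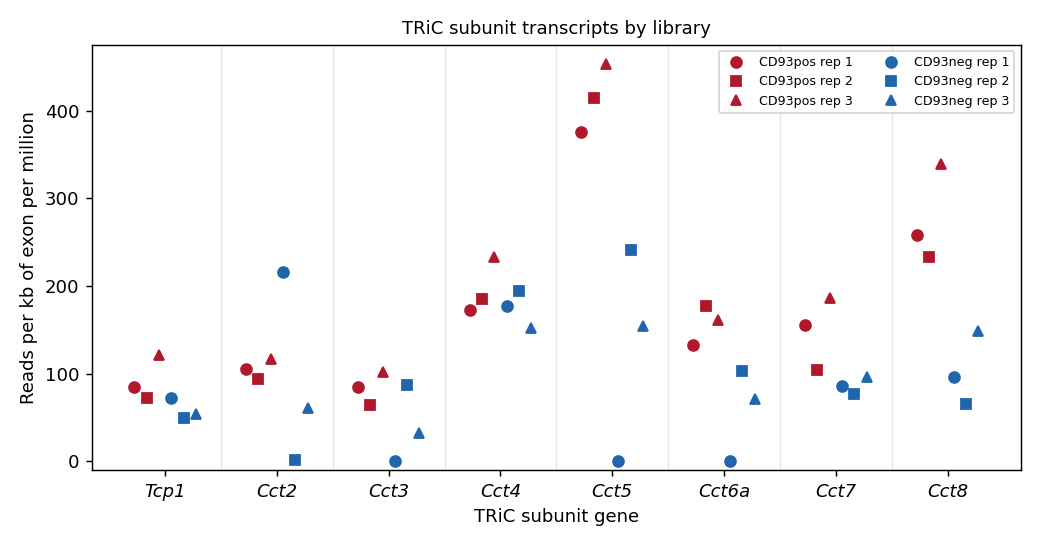
RPKM of the 8 TRiC subunits in each library, CD93pos in red and CD93neg in blue, with symbols for replicates 1, 2 and 3. Cct5 is the highest subunit in all but CD93neg replicate 1, where Cct3, Cct5 and Cct6a are at 0 and Cct2 stands at 216 RPKM.

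Genes that work with the members were counted over lists fixed for this comparison, and limma called 0 genes of any of these lists. Counts of genes without overlap are to be set against 18.3% higher and 1.92% lower over all tested genes, or 21.8% and 13.8% without CD93neg replicate 1. Of 12 mitochondrial folding and protease genes, 6 were higher without overlap and none lower, with and without CD93neg replicate 1. The list summed to 1484, 1478 and 1620 CPM in CD93pos and 861, 1109 and 1137 CPM in CD93neg. It holds Grpel1 and Grpel2, the nucleotide exchange factors of Hspa9, named after their values were seen: Grpel1 had 1400, 757 and 1289 reads in CD93pos, against 0, 396 and 252 in CD93neg, and Grpel2 had 694, 590 and 493 against 0, 0 and 61. Hspa9, Hspd1, Dnaja3, Grpel1 and Grpel2 of the mitochondrial matrix were each higher in every CD93pos library. Hspe1 overlapped and Dnajc19 was lower. Trap1, Clpp, Clpx, Clpb, Yme1l1 and Htra2 of the list also overlapped, and Trap1, read in all 6 libraries, had a log2 fold change of -0.025.

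Of 25 co-chaperones of HSP70 and HSP90, 4 were higher without overlap, a share no larger than that of all genes, and none lower, and their sum overlapped (4453 to 4827 CPM in CD93pos, 3561 to 5323 CPM in CD93neg). Of 16 folding genes of the endoplasmic reticulum 2 were higher, again no larger a share. Of 11 regulators of the unfolded protein response none were in either direction, and without CD93neg replicate 1 there were 3 lower and none higher. The sum of those 11 regulators was 953 to 1265 CPM in CD93pos and 1711 to 3716 CPM in CD93neg, lower in CD93pos. CD93neg replicate 1 read 3 of them, Atf6b, Xbp1 and Trib3, with 4802, 3792 and 1932 reads. The fitted log2 fold change was positive for 8 of the 11, against 79.9% of all tested genes. Without CD93neg replicate 1 it was positive for 3, against 60.1%. Hspa5, Hsp90b1 and Dnajc3, which hold the stress element, overlapped between the groups. Of 10 prefoldin subunits and TRiC helpers 1 was lower and none higher, and of 9 tested TRiC genes 4 were higher; the difference between these lists was not tested. Of 4 tested heat shock factors and partners 1, Ubb, was higher.

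Genes switched on by handling of cells were also read. Of 11 tested immediate early genes 1 was higher without overlap and 1 lower (3 and 3 without CD93neg replicate 1), and the list summed to 3870 to 5189 CPM in CD93pos and to 6195, 2097 and 3431 CPM in CD93neg. The higher gene was Fos, also named after its values were seen, with 878 to 1097 reads in CD93pos and a total of 1 in CD93neg, the same libraries in which Hspa1a had 475 to 3890 and 0, 0 and 32 reads. The lower gene, likewise named after its values were seen, was Zfp36, with normalized counts of 484, 784 and 1014 in CD93pos and 6372, 1256 and 2666 in CD93neg. Fitted log2 fold changes were positive for 7 of the 11 genes and negative for 4, beside 79.9% positive over all tested genes. The part of cell handling in the reads of Hspa1a and Hspa1b was not tested.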

How the data were processed

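RNA-seq of 6 libraries, 3 CD93pos and 3 CD93neg, was analysed, grouped by sample title. Per the labels' protocols, a low-input kit was used and pairs of 50 bp were read. The submitters' processing notes name STAR, featureCounts (Subread 1.5.0-p1), DESeq2 1.26, GRCm38 and mm10. Neither the annotation release nor the strand setting is given in the sources used here, so overlapping genes may share reads.

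One table deposited by the authors holds a signal, the counts of each gene over a library size factor. Their other deposited table holds the mean of that signal, log2 fold changes with SE, the Wald score, and the p-value with its adjusted p-value. Whole reads were recovered for 100% of values above 0 (tolerance 0.001).

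Groups were compared with limma 3.58.1 (lmFit and trended eBayes), after taking log2(normalized count + 1), over genes with a mean of at least 10, two-sided, Benjamini-Hochberg threshold 0.05. This scale understates changes of low genes. On recovered reads edgeR 4.0.16 called 0 genes and DESeq2 1.42.0 called 705, in R 4.3.3. On simulated counts (11805 genes, 200 changed by a log2 fold of 3, CV 0.3) limma recovered 100% with 7 false calls. The common CV that edgeR estimated in these data was 1.64, so that recovery does not give the power here. CPM and RPKM were computed from recovered reads, lengths and positions from GENCODE M21, in which 47310 of 47937 IDs and all 86 members were found. Lower bounds take 3 reads as the floor of the summed CD93neg group, and cover counting error only. Sequences are RefSeq's. Python 3.11.15 ran the remaining steps.

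Named genes were members fixed by role, the 6 with the smallest p in each direction, and the most abundant of each family. Members, lists and alternatives were chosen with earlier results of these data known. Alternatives covered pseudocount, filter, scaling, test, replicate block, library weights and libraries left out, and DESeq2 with each library left out and family sums with CD93neg libraries left out were added after seeing the data.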

Additional observations from a re-analysis of the deposited data

How the results depend on the processing

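The count of genes called over the whole table, 0 in the limma test, was 206 with a pseudocount of 0.5, 705 by DESeq2, 24 with the replicate block, and from 0 to 1880 with 1 library left out, the most without CD93neg replicate 3. Without CD93neg replicates 2 and 3 it was 7892. For members, 0 in the limma test, the counts were 1 (Hspa2), 3, 3, from 0 to 13, and 52 in that order. DESeq2 less 1 library, an alternative added after seeing the data, gave 310, 245 and 220 genes over the table when CD93pos replicate 1, 2 or 3 was missing and 1339, 1094 and 2446 when CD93neg replicate 1, 2 or 3 was. Its members numbered 1, 0, 0, 7, 4 and 10. The 21 members whose groups do not overlap became 24 to 32 with 1 library left out and 61 without CD93neg replicates 2 and 3. The median log2 fold change of members ranged from 0.52 to 3.17 with 1 library left out.

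Whether the replicate numbers pair the libraries is not given by the labels. Correlations of same-numbered libraries' deviations were 0.0372, 0.0191 and 0.0605, and each library correlated best with its own number. Values this small cannot decide it. The members called with the block were Cct5, Hsp90ab1 and Hspa8.

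Of 802 values for 45 named members under alternatives, 704 kept direction and side of the threshold, 46 newly passed it and 52 changed sign, in 19 members. The cause was not tested. Ratios of family sums, an alternative added after seeing the data, turned without CD93neg replicate 1 for HSP110 (1.05), the HSP70-binding proteins (1.104) and the regulators (1.29). Quantile normalization gave Bag3 -0.70, Dnaja1 -0.11, Dnajc21 -0.31, Hspa13 -1.39, Hspa4l -1.08 and Hspb1 -2.13. edgeR gave Hsf1 -0.93, Hspa13 -0.41, Hspa4l -0.080 and Hsph1 -1.86. DESeq2 gave Dnaja1 -0.068, Hsf1 -1.39, Hsp90aa1 -0.41, Hspa13 -0.52, Hspa4l -0.16, Hspb1 -0.021 and Hsph1 -2.42. Library weights gave Dnaja1 -0.51, Dnajc7 -0.086, Hspa13 -0.42, Hspa4 -0.47, Hspa4l -0.46 and Hspbp1 0.12. Without CD93neg replicates 2 and 3 the values were Cct2 -1.25, Cct4 -0.067, Cct6b 0.18, Dnajb2 2.45, Hsf1 -2.72, Hsp90aa1 -1.66, Hspa8 -0.055 and Hsph1 -4.21. With 1 library left out, log2 fold changes spanned -0.27 to 3.18 for Cct2, -0.039 to 0.18 for Cct4, -3.34 to 0.18 for Cct6b, -0.52 to 0.80 for Dnaja1, -1.92 to 0.81 for Dnajb12, -0.12 to 4.11 for Dnajb6, -0.082 to 1.84 for Dnajc7, -1.70 to 4.19 for Hsf1, -0.37 to 1.24 for Hsp90aa1, -1.42 to 3.00 for Hspa13, -0.32 to 0.35 for Hspa4, -0.72 to 2.28 for Hspa4l, -0.59 to 2.41 for Hspb1, -1.03 to 0.11 for Hspbp1 and -1.82 to 4.88 for Hsph1. At the smallest depth, 2832653 reads, CD93pos libraries would be expected to read 67.9 to 74.7 members, close to the 68 to 76 they read in full. This expectation only thins the reads obtained and does not cover molecules lost before sequencing.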

Other observations

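Ratios between paired members, computed per length of exon within a library, do not depend on the scaling between libraries. The constitutive Hsp90ab1 stood at 3.69, 3.31 and 3.29 times the inducible Hsp90aa1 in CD93pos replicates 1, 2 and 3, and at 5.34 and 4.06 times in CD93neg replicates 2 and 3. CD93neg replicate 1 had the opposite order, with Hsp90aa1 at 2.68 times Hsp90ab1. Hsph1 stood at 0.493, 0.109 and 0.788 times Hspa4 in CD93pos, at 12 times in CD93neg replicate 1, and at 0 and 0.173 times in CD93neg replicates 2 and 3.

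Hspd1 stood at 3.15, 7.08 and 6.05 times Hspe1 in CD93pos and at 2.65 and 2.83 times in CD93neg replicates 2 and 3, while neither was read in CD93neg replicate 1. Hspa8 stood at 1.45, 1.61 and 1.64 times Hspa5 in CD93pos and at 1.05 to 2.01 times in CD93neg. The listed level of Hspa1a was 19.4, 12.5 and 9.88 times that of Hspa1b in CD93pos, although reads in their shared sequence may be assigned to either.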
